A study of Homo sapiens with 9 samples.

Results

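The genes described here are 35 genes of cell junctions and of epithelial-mesenchymal transition, chosen by name from 7 roles: transcription factors that drive the transition, epithelial transcription and splicing factors, cadherins and catenins, tight junction genes, desmosome genes, mesenchymal cytoskeleton and matrix genes, and other cell surface genes. They were picked by name with earlier results of these data known, and the rule uses no measured value. Of the 35 genes, 33 were found by symbol among the 32906 genes listed for each library, and OVOL2 and EPCAM were not analysed here. RNA sequencing covered 9 libraries of Huh7, a line established from a human hepatocellular carcinoma, with 3 libraries each of cells given Scramble siRNA, Si-KDM4C#1 or Si-KDM4C#2. Both of the latter siRNAs are directed at KDM4C, a demethylase of histone H3 lysines, and every group was collected 48 hours after transfection. The libraries are unmodified cells of 1 line apart from the transfection. The study says in general that experiments were done at least 3 times independently, without naming these libraries. Nothing states that the replicates of a group came from separate cultures, so the p-values measure the spread between these libraries, which may be technical.

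Epithelial cells hold together through tight junctions, adherens junctions and desmosomes. In epithelial-mesenchymal transition, repressors of the Snail and ZEB families bind E-box sequences in promoters of epithelial genes, junctions are taken apart, and proteins such as N-cadherin, vimentin and fibronectin come up. In liver cancer cells the transition is studied for its link to migration, and the study asked whether KDM4C silencing bears on migration and on proteins used as its markers, ZEB1, Snail, beta-catenin and vimentin.

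Values are FPKM, the fragments per kilobase of exon and scaled to the total fragments of the library, so levels can be set side by side between genes. Between libraries they can be compared only as far as that scaling holds, and fits with other scalings are given below. The libraries held 14597503 to 18058557 fragments, and 3 fragments, taken as the floor, correspond to 0.166 to 0.206 FPKM where the exons add up to 1 kb, which covers counting error only. KDM4C stood at 4.57 to 4.88 FPKM with Scramble, 1.10 to 1.18 under Si-KDM4C#1 and 0.256 to 0.349 under Si-KDM4C#2. Its paralog KDM4B stood at 6.06 to 6.67 FPKM with Scramble, 5.16 to 6.42 under Si-KDM4C#1 and 1.10 to 1.26 under Si-KDM4C#2, so the libraries of Si-KDM4C#2 were lower in both demethylases. The part of KDM4B in the values of Si-KDM4C#2 was not tested. Of 14 listed mRNAs typical of hepatocytes, none reached 1 FPKM in any library, and the highest was APOA2 at 0.248 FPKM. The line is therefore called Huh7 only as the labels give it.

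Levels spanned a wide range among the 33 genes. The highest was S100A4, a small calcium-binding protein linked to motile cells, with a mean of 664 FPKM in Scramble cells, which placed it among the top 0.0912% of listed genes. JUP (plakoglobin) followed at 172 FPKM, CTNNA1 (alpha-catenin) at 63.6 and VIM (vimentin) at 51.6. In Scramble cells, 10 genes had a mean of at least 10 FPKM. At the other end, 7 genes had a mean under 1 FPKM in every group: ZEB2, OVOL1, GRHL2, ESRP1, CDH1, OCLN and SPARC. The other 26 genes were tested. CLDN4 and FN1 passed that limit only through the Scramble group and ST14 only through Scramble and Si-KDM4C#2, the groups where each was high.

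**Figure D1:**
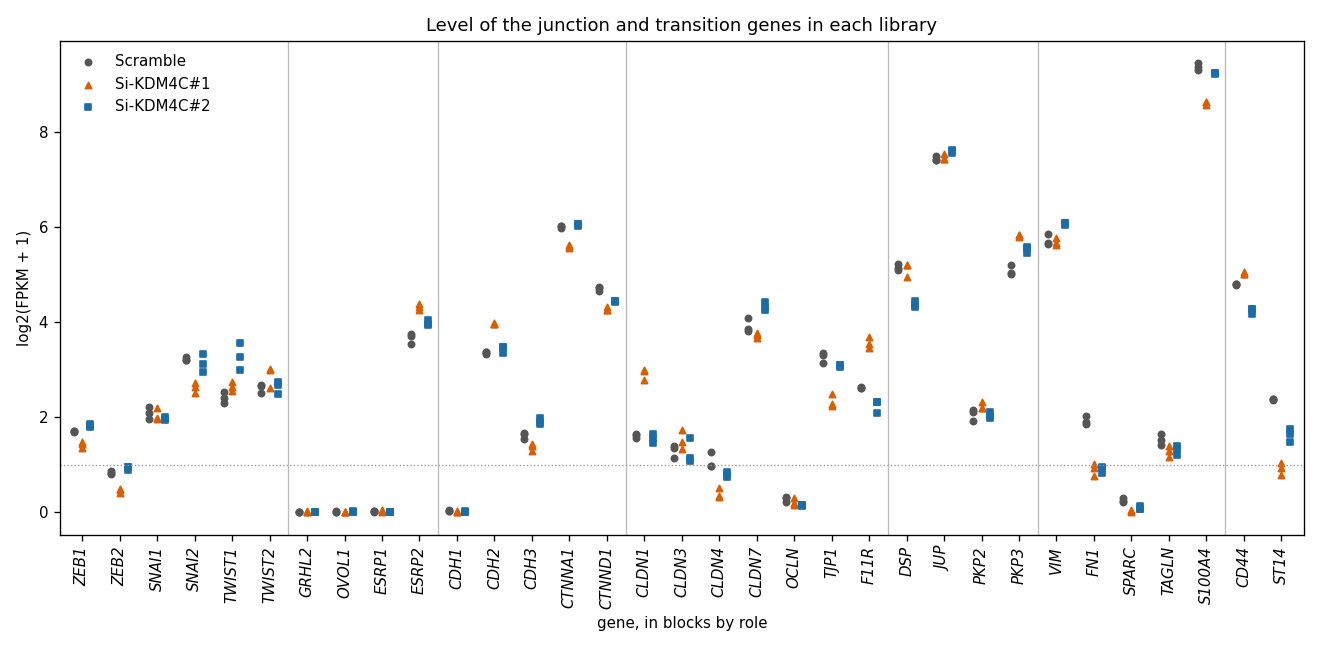
Level of each of the 33 genes in each of the 9 libraries, as log2(FPKM + 1), in blocks by role (grey circles Scramble, orange triangles Si-KDM4C#1, blue squares Si-KDM4C#2; the dotted line is 1 FPKM). S100A4 and JUP lie highest in every library, and CDH1, GRHL2, OVOL1 and ESRP1 lie at or near 0 in all of them.

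Each siRNA was compared with Scramble, and the siRNAs with each other, on log2(FPKM + 1) by limma-trend over all 14363 genes whose group mean was 1 FPKM or more in any group, with Benjamini-Hochberg adjustment over all of them. Log2 fold changes are on that scale, which makes the change of weakly expressed genes smaller than the ratio of their FPKM. With Si-KDM4C#1, 6 of the 26 tested genes rose (23.1%) and 11 fell (42.3%) at an FDR under 0.05, beside 31.7% rising and 33.9% falling of all genes tested. Together 17 of 26 changed (65.4%), beside 65.7% of all genes tested. A fold change over 2 was required as well in the second count, which left CLDN1 as the only gene that rose and FN1 and ST14 as those that fell, 3 of 26 (11.5%) beside 8.87% of all genes tested (4.04% rising and 4.83% falling). With Si-KDM4C#2, 7 genes rose and 7 fell (26.9% each), beside 34.4% rising and 25.0% falling of all genes tested, so that 14 of 26 changed (53.8%) beside 59.4%. FN1, which fell, was the only one over 2-fold on the log2(FPKM + 1) scale, 1 of 26 (3.8%) beside 4.89% of all genes tested (2.6% rising and 2.3% falling). None (0) of the 26 rose over 2-fold on that scale with Si-KDM4C#2 in limma-trend. As plain ratios of mean FPKM, CLDN4 (3.58 times lower), TJP1 (2.12 times lower) and F11R (2.09 times higher) were over 2 as well with Si-KDM4C#1. With Si-KDM4C#2, so were ST14 (2.01 times lower) and TWIST1 (2.03 times higher). All of these passed the FDR limit.

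The members thus changed about as often as other genes in these libraries. Their median log2 fold change was -0.03 with Si-KDM4C#1, equal to -0.03 over all genes tested, and -0.045 with Si-KDM4C#2, against 0.06 over all genes tested. The median size of the change, regardless of direction, was 0.35 with Si-KDM4C#1 (0.37 over all genes tested) and 0.24 with Si-KDM4C#2 (0.30 over all genes tested). The libraries of the 2 groups did not overlap for 20 genes with Si-KDM4C#1 (69.4% of all genes tested) and for 18 genes with Si-KDM4C#2 (65.3% of all genes tested). The split into higher and lower differed between fits: it was 10 higher and 11 lower with Si-KDM4C#1 when recovered fragments were tested with limma voom, which also changes the filter and drops the pseudocount on FPKM, and 4 higher and 12 lower with Si-KDM4C#2 after adjustment for GC content. The 11 lower with Si-KDM4C#1 in voom include ZEB2 and SPARC, which the main fit did not test, and SNAI2 was not fitted in voom. Over 2-fold with Si-KDM4C#2, GC adjustment left 1 gene, which was ST14 (-1.07) in place of FN1 (-0.95).

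The siRNAs often differed from each other. In the direct comparison, Si-KDM4C#2 gave higher values than Si-KDM4C#1 for 13 genes and lower values for 8, 21 of 26 (80.8%) beside 62.4% of all genes tested, 35.9% being higher and 26.5% lower. Over 2-fold on the log2(FPKM + 1) scale, only CLDN1 and F11R differed, both lower with Si-KDM4C#2, beside 6.91% of all genes tested (4.41% higher and 2.49% lower). As plain ratios of mean FPKM, ST14 (2.34) and CLDN4 (2.33) were over 2 as well, both higher with Si-KDM4C#2 and past the FDR limit. The libraries of the siRNAs did not overlap for 21 of the 26 genes (69.3% of all genes tested). Set beside the same Scramble libraries, 6 genes passed the FDR limit in the same direction with both siRNAs: ESRP2 and PKP3 rose, and CTNND1, FN1, S100A4 and ST14 fell. Moreover, 4 genes passed it in opposite directions, CD44, CDH3, CLDN7 and F11R. Another 7 passed with Si-KDM4C#1 alone and 4 with Si-KDM4C#2 alone, and for all 11 of these the difference between the siRNAs itself passed. The remaining 5, SNAI1, TWIST2, CLDN3, PKP2 and TAGLN, passed with neither.

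**Figure D2:**
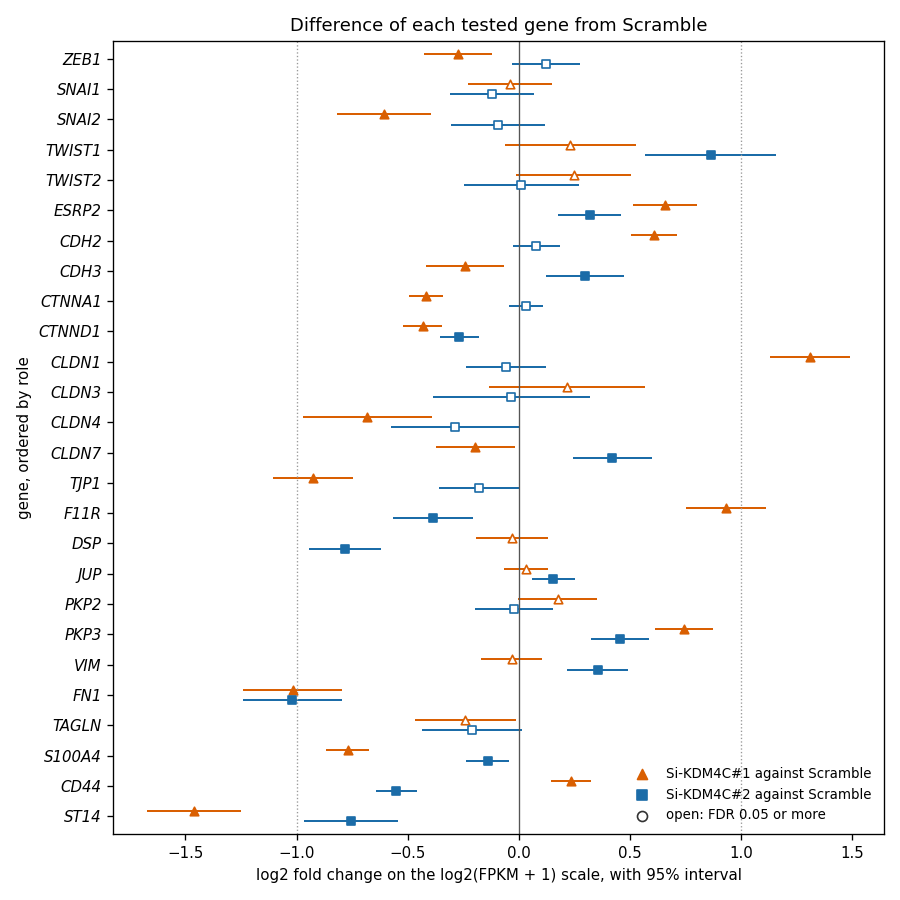
Log2 fold change against Scramble of the 26 tested genes on the log2(FPKM + 1) scale, ordered by role (orange triangles Si-KDM4C#1, blue squares Si-KDM4C#2; lines are 95% intervals, open symbols did not pass an FDR of 0.05, dotted lines mark 2-fold). CLDN1 reaches 1.31 with Si-KDM4C#1 alone, FN1 lies near -1.02 with both siRNAs, and F11R and CD44 lie on opposite sides of 0.

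The EMT transcription factors were all transcribed at modest levels. ZEB1, ZEB2, SNAI1 (Snail) and SNAI2 (Slug) are zinc finger repressors of epithelial genes, and TWIST1 and TWIST2 are helix-loop-helix factors. Of the 5 tested, SNAI2 and ZEB1 fell with Si-KDM4C#1 and TWIST1 rose with Si-KDM4C#2. SNAI2, the highest of them, stood at 8.24, 8.60 and 8.20 FPKM with Scramble, 5.59, 4.66 and 5.18 under Si-KDM4C#1, and 6.70, 7.71 and 8.99 under Si-KDM4C#2. The Si-KDM4C#1 libraries were thus the lowest, without overlap, while those of Si-KDM4C#2 spread around the Scramble values. SNAI2 fell by 0.61 on the log2 scale with Si-KDM4C#1 (standard error, SE, 0.092, adjusted p = 0.00026, limma-trend), and its value under Si-KDM4C#2 was -0.10 (adjusted p = 0.398, limma-trend).

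ZEB1 stood at 2.27, 2.28 and 2.21 FPKM with Scramble, 1.72, 1.80 and 1.55 under Si-KDM4C#1, and 2.49, 2.48 and 2.64 under Si-KDM4C#2, from 216 to 390 fragments per library. All 3 groups were apart, with Si-KDM4C#1 lowest and Si-KDM4C#2 highest. ZEB1 fell by 0.27 on the log2 scale with Si-KDM4C#1 (95% interval -0.42 to -0.12, adjusted p = 0.00475, limma-trend), a call that was lost after GC adjustment (-0.01, adjusted p = 0.854) and after quantile normalization (-0.14, adjusted p = 0.0809). With Si-KDM4C#2 the log2 fold change was 0.12 (95% interval -0.03 to 0.27, adjusted p = 0.138, limma-trend), which passed only after GC adjustment (0.23, adjusted p = 0.0107). Between the siRNAs ZEB1 differed by 0.40 (adjusted p = 0.000556, limma-trend).

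SNAI1 stood at 3.61, 2.91 and 3.22 FPKM with Scramble, 2.96, 3.53 and 2.92 under Si-KDM4C#1, and 2.98, 2.90 and 2.82 under Si-KDM4C#2. The groups overlapped. Its log2 fold changes were -0.04 with Si-KDM4C#1 (95% interval -0.22 to 0.15) and -0.12 with Si-KDM4C#2 (95% interval -0.30 to 0.06), which did not pass (adjusted p = 0.697 and 0.232, limma-trend). After GC adjustment SNAI1 passed as lower with both (-0.20, adjusted p = 0.0306, and -0.33, adjusted p = 0.00313). SNAI1 rests on 76 to 93 fragments per library.

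TWIST1 was measured at 4.27, 4.79 and 3.90 FPKM with Scramble, 5.20, 5.69 and 4.84 under Si-KDM4C#1, and 10.8, 6.95 and 8.65 under Si-KDM4C#2. The last group was the highest and had the widest spread. TWIST1 rose by 0.86 on the log2 scale with Si-KDM4C#2 (SE 0.13, adjusted p = 0.000304, limma-trend), which became 1.004, past 2-fold, without Si-KDM4C#2 replicate 2. With Si-KDM4C#1 its libraries also lay above Scramble, but the value did not pass (0.23, adjusted p = 0.14, limma-trend). It passed as higher in voom (0.36, adjusted p = 0.0386), in voom with the block (0.35, adjusted p = 0.0322) and in the fit to 6 libraries (adjusted p = 0.0428). TWIST2, with means of 5.14, 6.34 and 5.20 FPKM in Scramble, Si-KDM4C#1 and Si-KDM4C#2, passed with neither siRNA, but without Si-KDM4C#1 replicate 2 it passed with that siRNA (0.38, adjusted p = 0.00502). With Si-KDM4C#1 it also passed as higher in voom (0.39, adjusted p = 0.0136) and after quantile normalization (0.31, adjusted p = 0.0331). ZEB2 was below 1 FPKM throughout, with 301 to 332 fragments per Scramble library, 132 to 171 with Si-KDM4C#1 and 330 to 400 with Si-KDM4C#2, and in the fit over all listed genes its log2 fold change was -0.38 with Si-KDM4C#1 (adjusted p = 0.00735, limma-trend).

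**Figure D3:**
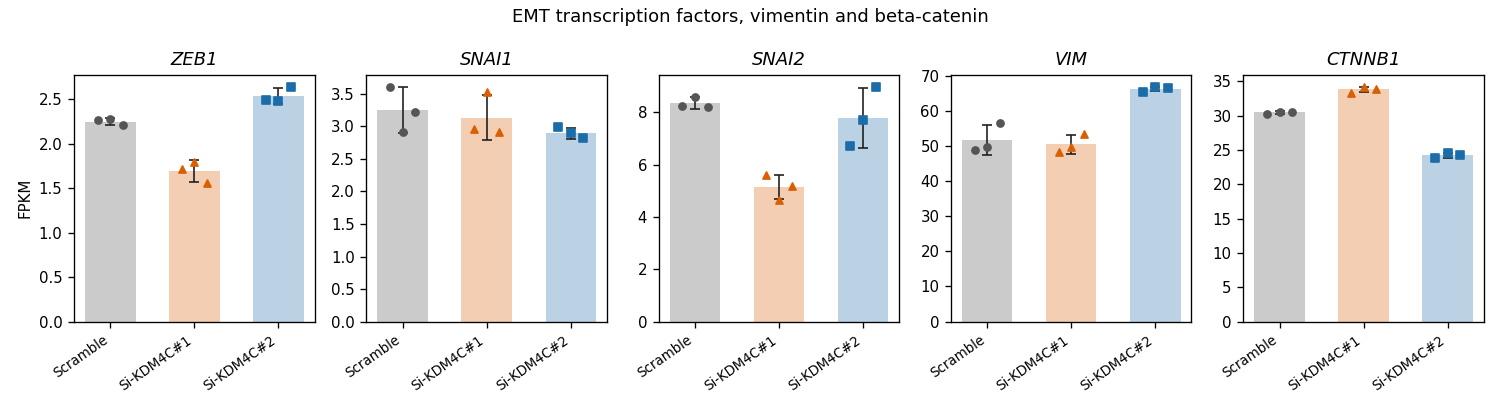
FPKM of ZEB1, SNAI1, SNAI2, VIM and CTNNB1 in each group (bars are means of 3 libraries, error bars SD, points the libraries). SNAI1 overlaps between groups, ZEB1 and SNAI2 are lowest with Si-KDM4C#1, and VIM is highest with Si-KDM4C#2 at 65.4 to 66.7 FPKM.

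The E-boxes that Snail and ZEB proteins read are CACCTG or its reverse complement CAGGTG, so that each site is found whichever strand is searched. They were looked for in the 250 bases before each transcription start in the RefSeq promoter table (GRCh38.p14). The table held 34 starts of 18 of the genes, and 9 of these starts (26.5%), in 7 genes, carried at least 1 such E-box, against 6143 of all 35116 promoters (17.5%). The 7 genes were CLDN7, DSP, JUP, OCLN, S100A4, TJP1 and ZEB1, and CLDN7 carried the most, with 4 before 1 start. DSP, JUP and ZEB1 each carried 2 before 1 start. Sites of the members with large or differing changes are given here on the strand of the gene, with the E-box at the stated distance in capitals, so that a reader can see the letters and their setting. The window of JUP also holds its other E-box, 43 bases before the start, in small letters.
CLDN7, 174 bases before the start, chr17:7262635-7262664, minus strand: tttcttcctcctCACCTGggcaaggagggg
CLDN7, 135 bases before the start, chr17:7262596-7262625, minus strand: cgacttccggttCAGGTGagtgtcccttcg
DSP, 85 bases before the start, chr6:7541574-7541603, plus strand: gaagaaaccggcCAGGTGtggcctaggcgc
JUP, 54 bases before the start, chr17:41786013-41786042, minus strand: cgactctggcccCACCTGccgagcaggtga
S100A4, 164 bases before the start, chr1:153545953-153545982, minus strand: cccacgggtgccCACCTGggaacaggaggc
TJP1, 88 bases before the start, chr15:29969120-29969149, minus strand: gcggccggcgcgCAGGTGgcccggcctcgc
ZEB1, 57 bases before the start, chr10:31318348-31318377, plus strand: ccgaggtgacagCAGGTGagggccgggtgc
These are matches of letters, and binding was not measured. Among the genes that hold such a site, CLDN7 went in opposite directions with the siRNAs, TJP1 and S100A4 fell most with Si-KDM4C#1, and DSP fell with Si-KDM4C#2 alone. CLDN7, JUP, TJP1 and ZEB1 also had starts without such a site. CLDN1 and FN1, with some of the largest changes, had none in this window, and F11R and ST14 had no start among the 34. The part of these sites in the changes was not tested.

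Among the epithelial transcription and splicing factors, ESRP2 was the only one at a measurable level. ESRP2 and ESRP1 are RNA-binding proteins that set epithelial splice forms. ESRP2 stood at 12.4, 12.01 and 10.6 FPKM with Scramble, 18.8, 19.8 and 18.2 under Si-KDM4C#1, and 15.4, 14.5 and 14.3 under Si-KDM4C#2. The groups did not overlap, and those of Si-KDM4C#1 were highest. It rose by 0.66 on the log2 scale with Si-KDM4C#1 (SE 0.061, adjusted p = 9.13e-06) and of 0.32 with Si-KDM4C#2 (adjusted p = 0.00151, limma-trend), and the latter was lost after GC adjustment (0.08, adjusted p = 0.224). By contrast GRHL2 gave 1 fragment, OVOL1 2 fragments (27.1% of whose exon bases also lie in an antisense transcript) and ESRP1 5 fragments over all 9 libraries, which is under the floor.

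Cadherins and catenins build adherens junctions. CDH1 (E-cadherin), the defining cadherin of epithelia, gave 6 fragments over the 3 Scramble libraries and 2 over those of each siRNA, at most 0.0322 FPKM in any library, so no difference could be detected at this depth. CDH2 (N-cadherin), the cadherin of mesenchymal cells, stood at 9.33, 8.98 and 9.32 FPKM with Scramble, 14.5, 14.5 and 14.7 under Si-KDM4C#1, and 10.1, 10.1 and 9.21 under Si-KDM4C#2. Only the Si-KDM4C#1 libraries stood apart. CDH2 rose by 0.61 on the log2 scale with Si-KDM4C#1 (SE 0.044, adjusted p = 1.71e-06), and its value under Si-KDM4C#2 was 0.08 (adjusted p = 0.149, limma-trend), which passed without Si-KDM4C#2 replicate 3 (0.12, adjusted p = 0.0459). CDH3 (P-cadherin) had means of 2.06, 1.59 and 2.76 FPKM in Scramble, Si-KDM4C#1 and Si-KDM4C#2, a fall of 0.24 on the log2 scale with the former siRNA (adjusted p = 0.0183) and a rise of 0.30 with the latter (adjusted p = 0.00731, limma-trend). The fall was lost after quantile normalization (-0.10) and without Scramble replicate 1 (-0.22), Scramble replicate 3 (-0.22) or Si-KDM4C#1 replicate 3 (-0.20), and the rise after GC adjustment (0.16).

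CTNNA1, which ties the cadherin complex to actin, stood at 62.1, 64.1 and 64.4 FPKM with Scramble, 47.7, 46.3 and 48.0 under Si-KDM4C#1, and 65.5, 64.2 and 65.5 under Si-KDM4C#2. The Si-KDM4C#1 libraries were lower than the others, which overlapped. CTNNA1 fell by 0.42 on the log2 scale with Si-KDM4C#1 (adjusted p = 2.12e-06), while with Si-KDM4C#2 the value was 0.03 (adjusted p = 0.384, limma-trend) and turned to -0.11 (adjusted p = 0.0155) after quantile normalization. CTNND1 (p120-catenin), which holds cadherins at the membrane, fell with both siRNAs, from a mean of 25.1 ± 0.694 FPKM (SD, n = 3) to 18.3 ± 0.436 (SD, n = 3) with Si-KDM4C#1 and 20.7 ± 0.287 (SD, n = 3) with Si-KDM4C#2 (-0.43 and -0.27 on the log2 scale, limma-trend). Its difference between the siRNAs was 0.17 (adjusted p = 0.00301, limma-trend) and was lost in voom (0.04, adjusted p = 0.516). CTNNB1 (beta-catenin), not one of the 35 genes but measured as protein in the study, stood at 30.3 to 30.6 FPKM with Scramble, 33.4 to 34.2 under Si-KDM4C#1 and 23.8 to 24.5 under Si-KDM4C#2. Its log2 fold change was 0.15 with Si-KDM4C#1 (adjusted p = 0.00219), which turned to -0.04 (adjusted p = 0.333) after quantile normalization, and it fell by 0.32 with Si-KDM4C#2 (adjusted p = 1.74e-05, limma-trend).

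The tight junction genes held the largest rise and the largest differences between the siRNAs among the 26 tested genes. CLDN1 (claudin-1), a sealing claudin of liver and epidermis (chr3:190305701-190322475, minus strand, GRCh38), stood at 1.95, 2.11 and 2.09 FPKM with Scramble, 5.91, 6.99 and 6.85 under Si-KDM4C#1, and 1.96, 2.12 and 1.73 under Si-KDM4C#2. All 3 Si-KDM4C#1 libraries lay far above the other 6, which overlapped. Its mean FPKM with Si-KDM4C#1 was 3.21 times that with Scramble, a log2 fold change of 1.31 (95% interval 1.14 to 1.49, adjusted p = 4.39e-07), against -0.06 with Si-KDM4C#2 (95% interval -0.23 to 0.12, adjusted p = 0.546, limma-trend). The difference between the siRNAs was -1.37 (adjusted p = 4.55e-07, limma-trend). Leaving out each library in turn kept the rise between 1.27 and 1.38.

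F11R (JAM-A), an immunoglobulin-like adhesion protein of tight junctions (chr1:160995211-161021348, minus strand, GRCh38), stood at 5.22, 5.14 and 5.15 FPKM with Scramble, 9.94, 10.6 and 11.9 under Si-KDM4C#1, and 3.26, 3.98 and 3.96 under Si-KDM4C#2. The 3 groups were apart, with Scramble in the middle. F11R rose by 0.93 on the log2 scale with Si-KDM4C#1 (95% interval 0.76 to 1.11, adjusted p = 4.2e-06) and fell by 0.39 with Si-KDM4C#2 (95% interval -0.56 to -0.21, adjusted p = 0.00201, limma-trend). The siRNAs differed by -1.32 (adjusted p = 5.81e-07, limma-trend). A transcript on the same strand, AL591806.3, shares 36.6% of its exon bases, so the reads of F11R and of that transcript may be divided between them.

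CLDN7 (claudin-7), the highest of the tight junction genes, stood at 16.0, 13.4 and 12.9 FPKM with Scramble, 12.2, 11.6 and 12.6 under Si-KDM4C#1, and 18.2, 20.5 and 18.9 under Si-KDM4C#2. Si-KDM4C#2 was clearly highest, while the gap between Scramble and Si-KDM4C#1 was narrow. CLDN7 rose by 0.42 on the log2 scale with Si-KDM4C#2 (adjusted p = 0.00112) and fell by 0.20 with Si-KDM4C#1 (adjusted p = 0.0476, limma-trend). That latter call was lost with the replicate block (adjusted p = 0.0717), without the filter (adjusted p = 0.108), in the fit to 6 libraries (adjusted p = 0.0669), in voom (-0.13, adjusted p = 0.18) and in 6 of the 9 fits that left out a library, with values of -0.11 without Scramble replicate 1, -0.20, -0.17 and -0.22 without Si-KDM4C#1 replicates 1, 2 and 3, and -0.20 without Si-KDM4C#2 replicate 1 or 3. TJP1 (ZO-1), the scaffold under tight junctions, fell with Si-KDM4C#1 from a mean of 8.62 ± 0.733 FPKM (SD, n = 3) to 4.06 ± 0.487 (SD, n = 3), a log2 fold change of -0.93 (adjusted p = 4.32e-06), which went just past 2-fold (-1.004) without Si-KDM4C#1 replicate 1. Its mean with Si-KDM4C#2 was 7.47 FPKM (-0.18, adjusted p = 0.0719, limma-trend). This value passed as lower in voom (-0.26, adjusted p = 0.000894), after quantile normalization (-0.26, adjusted p = 0.0112) and in the fit to 6 libraries (adjusted p = 0.0445). It also passed with the replicate block (adjusted p = 0.0461) and without Scramble replicate 3 (-0.24) or Si-KDM4C#1 replicate 1 (-0.18).

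CLDN4 (claudin-4) fell with Si-KDM4C#1, by 0.68 on the log2 scale (adjusted p = 0.000997, limma-trend), from 248 fragments over the Scramble libraries to 72. It had 163 fragments with Si-KDM4C#2 (-0.29, adjusted p = 0.0778), a value that passed in voom (-0.64, adjusted p = 0.00803) and after GC adjustment (-0.48, adjusted p = 0.00594). Because CLDN4 lies near 1 FPKM, the pseudocount weighs on it: with a pseudocount of 0.1 the value for Si-KDM4C#1 was -1.56 (adjusted p = 0.000987). CLDN3 passed with neither siRNA, at means of 1.46, 1.87 and 1.43 FPKM in Scramble, Si-KDM4C#1 and Si-KDM4C#2. It passed as higher with Si-KDM4C#1 after quantile normalization (0.37, adjusted p = 0.0493) and as lower with Si-KDM4C#2 after GC adjustment (-0.50, adjusted p = 0.0252), which turned the value for Si-KDM4C#1 to -0.17. OCLN (occludin) stayed between 0.0954 and 0.251 FPKM.

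**Figure D4:**
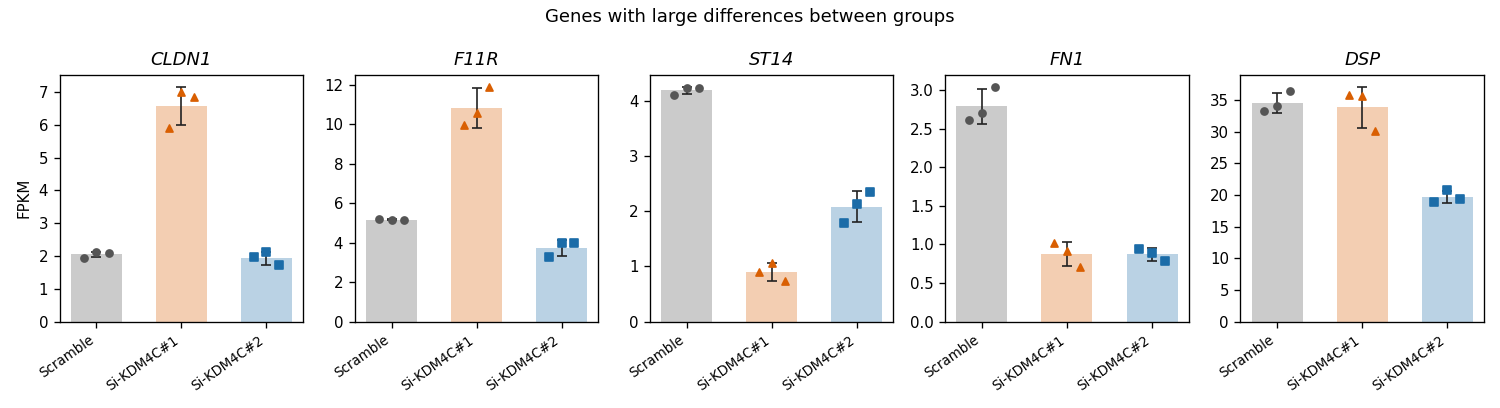
FPKM of CLDN1, F11R, ST14, FN1 and DSP in each group (bars are means of 3 libraries, error bars SD, points the libraries; each axis starts at 0). CLDN1 and F11R are highest with Si-KDM4C#1, DSP is lowest with Si-KDM4C#2, and FN1 and ST14 are below Scramble with both siRNAs.

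Desmosomes anchor intermediate filaments at cell contacts. JUP, which serves both desmosomes and adherens junctions, was the highest of their genes, at 179, 168 and 168 FPKM with Scramble, 172, 171 and 185 under Si-KDM4C#1, and 196, 188 and 192 under Si-KDM4C#2. The values of Si-KDM4C#2 lay just above the rest. Its log2 fold change was 0.16 with Si-KDM4C#2 (adjusted p = 0.00935, limma-trend), a direction that turned to -0.13 (adjusted p = 0.0139) after GC adjustment. With Si-KDM4C#1 it was 0.03 (adjusted p = 0.523, limma-trend), and this turned to -0.20 (adjusted p = 0.00102) after GC adjustment and -0.11 (adjusted p = 0.0317) after quantile normalization, but passed as higher in voom (0.11, adjusted p = 0.0256).

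DSP (desmoplakin), the link between desmosome and filament, stood at 33.2, 34.0 and 36.4 FPKM with Scramble, 35.8, 35.7 and 30.1 under Si-KDM4C#1, and 18.9, 20.7 and 19.4 under Si-KDM4C#2. Only the last group was apart, and far below. DSP fell by 0.78 on the log2 scale with Si-KDM4C#2 (95% interval -0.94 to -0.63, adjusted p = 1.04e-05, limma-trend), with -0.03 for Si-KDM4C#1 (95% interval -0.19 to 0.13, adjusted p = 0.716, limma-trend), which passed after quantile normalization (-0.22, adjusted p = 0.0185). PKP3 (plakophilin-3) went the other way, from 31.0 to 35.6 FPKM with Scramble to 54.1 to 56.2 with Si-KDM4C#1 and 42.6 to 46.7 with Si-KDM4C#2. PKP3 rose by log2 fold changes of 0.74 (adjusted p = 2.16e-06) and 0.45 (adjusted p = 8.91e-05, limma-trend), the latter being lost after GC adjustment (0.04, adjusted p = 0.307). PKP2 (plakophilin-2) had means of 3.18, 3.71 and 3.11 FPKM and passed with neither siRNA, but with Si-KDM4C#1 it passed without Scramble replicate 3 (0.22) and after quantile normalization (0.28), GC adjustment (0.24) or in voom (0.31).

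Of the mesenchymal cytoskeleton and matrix genes, FN1 and S100A4 fell with both siRNAs and VIM rose with Si-KDM4C#2. FN1 encodes fibronectin, a matrix protein that liver cells also secrete (chr2:215360440-215436172, minus strand, GRCh38). It stood at 2.61, 2.71 and 3.05 FPKM with Scramble, 1.01, 0.910 and 0.701 under Si-KDM4C#1, and 0.935, 0.891 and 0.782 under Si-KDM4C#2. Every knockdown library was far below every Scramble library, and the siRNA groups overlapped. FN1 fell by 1.02 on the log2 scale with Si-KDM4C#1 (95% interval -1.23 to -0.80, adjusted p = 1.04e-05) and by 1.02 with Si-KDM4C#2 (95% interval -1.24 to -0.80, adjusted p = 1.58e-05, limma-trend), with 3.19 and 3.21 times less FPKM than in Scramble. The direct difference between the siRNAs was -0.00 (95% interval -0.22 to 0.22, adjusted p = 0.989, limma-trend).

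The fold of FN1 sat at the 2-fold limit. It was under it after GC adjustment (-0.84 with Si-KDM4C#1 and -0.95 with Si-KDM4C#2) and, for Si-KDM4C#1, after quantile normalization (-0.88). It also went just under without Scramble replicate 3 (-0.97 with each siRNA), without Si-KDM4C#1 replicate 3 (-0.95 with that siRNA) and without Si-KDM4C#2 replicate 3 (-0.98 with that siRNA), and the FDR was passed in all of these fits. On recovered fragments FN1 fell by more, with log2 fold changes of -1.60 and -1.74 in limma voom.

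S100A4 stood at 635, 659 and 699 FPKM with Scramble, 377, 394 and 396 under Si-KDM4C#1, and 599, 601 and 608 under Si-KDM4C#2. The Si-KDM4C#1 libraries were far lower and those of Si-KDM4C#2 slightly lower than Scramble. It fell by 0.77 on the log2 scale with Si-KDM4C#1 (SE 0.04, adjusted p = 2.19e-07) and by 0.14 with Si-KDM4C#2 (adjusted p = 0.0141, limma-trend), the latter being lost without the filter on low values (adjusted p = 0.0867). VIM stood at 48.8, 49.6 and 56.5 FPKM with Scramble, 48.3, 49.5 and 53.5 under Si-KDM4C#1, and 65.4, 66.7 and 66.4 under Si-KDM4C#2. Only the last group was apart. VIM rose by 0.36 on the log2 scale with Si-KDM4C#2 (95% interval 0.22 to 0.49, adjusted p = 0.000591) and had -0.03 with Si-KDM4C#1 (95% interval -0.16 to 0.10, adjusted p = 0.657, limma-trend), the latter passing as lower after quantile normalization (-0.21, adjusted p = 0.0105). The antisense transcripts VIM-AS1 and AL133415.1 cover 24.4% of its exon bases, and the library kit is not stated to keep the strand. Smaller overlaps with other annotated genes were 12.3% of exon bases for CLDN7, 11.4% for TAGLN, 11.1% for CDH3 and 4.23% for ZEB1.

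TAGLN (transgelin), an actin-binding protein, had means of 1.87, 1.43 and 1.48 FPKM in Scramble, Si-KDM4C#1 and Si-KDM4C#2 and passed with neither siRNA (adjusted p = 0.055 and 0.0939, limma-trend), although it passed as lower with both after GC adjustment (-0.39 and -0.40) and with Si-KDM4C#1 without Scramble replicate 3 (-0.30) or Si-KDM4C#1 replicate 3 (-0.29). SPARC, a matrix protein under the limit for testing, gave 44 fragments over the Scramble libraries, 4 with Si-KDM4C#1 and 14 with Si-KDM4C#2. Fitted over all listed genes, its log2 fold changes on log2(FPKM + 1) were -0.23 (adjusted p = 0.000782) and -0.16 (adjusted p = 0.00561, limma-trend), values that the pseudocount keeps small.

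Of 8 fibroblast markers, 4 reached 1 FPKM in at least 1 library, and their summed level was 49.4 to 52.9 FPKM with Scramble, 56.0 to 59.1 under Si-KDM4C#1 and 79.7 to 80.7 under Si-KDM4C#2. Most of it was COL3A1, with means of 27.5, 38.5 and 55.5 FPKM, while COL1A2, DCN, PDGFRA and FAP stayed under 1 FPKM. In the same order, the means of COL1A1 were 14.8, 15.4 and 17.5 FPKM. The other markers that reached 1 FPKM had lower means with both siRNAs, LUM at 6.97, 3.58 and 6.15 FPKM and PDGFRB at 1.95, 0.308 and 1.03. For LUM with Si-KDM4C#2 the difference was near the spread (SD 0.493 with Scramble and 0.683 with Si-KDM4C#2), so no fall is claimed there. The 3 listed endothelial markers and the 5 listed leukocyte markers were under 1 FPKM in every library. The part of these markers in the values of VIM, FN1 and S100A4 was not tested. In bulk libraries, fewer cells of a type and less RNA per cell cannot be told apart.

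For KDM4C and the mRNAs of the proteins that the study measured as migration markers, exact two-sided permutation tests were also run over libraries. Exact permutation tests of 3 libraries against 3 cannot go below p = 0.1, which KDM4C, ZEB1 and CTNNB1 reached with each siRNA and VIM with Si-KDM4C#2. With both siRNAs together, 6 libraries against 3, the difference in log2(FPKM + 1) was -1.78 for KDM4C (exact permutation p = 0.0119, the smallest of 84 splits). It was -0.08 for ZEB1 (exact permutation p = 0.548), -0.08 for SNAI1 (exact permutation p = 0.345), 0.16 for VIM (exact permutation p = 0.321) and -0.09 for CTNNB1 (exact permutation p = 0.5). Adjusted over the 16 tests of the latter 4 genes, these values were 0.626, 0.502, 0.502 and 0.615. For ZEB1 and CTNNB1 the pooled value joins siRNAs that lay on different sides of Scramble.

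Among other cell surface genes, ST14 fell most of all tested members with Si-KDM4C#1. With Si-KDM4C#2, FN1 (-1.02) and DSP (-0.78) fell more than ST14. ST14 encodes matriptase, a membrane-bound serine protease of epithelia (chr11:130159562-130210376, plus strand, GRCh38). ST14 stood at 4.11, 4.24 and 4.23 FPKM with Scramble, 0.891, 1.06 and 0.730 under Si-KDM4C#1, and 1.78, 2.13 and 2.34 under Si-KDM4C#2. All 6 knockdown libraries were below Scramble, and those of Si-KDM4C#1 lowest. ST14 fell by 1.46 on the log2 scale with Si-KDM4C#1 (95% interval -1.67 to -1.25, adjusted p = 6.64e-07) and by 0.76 with Si-KDM4C#2 (95% interval -0.96 to -0.55, adjusted p = 8.09e-05, limma-trend). Between the siRNAs the difference was 0.70 (adjusted p = 0.00011, limma-trend). Its FPKM was 4.70 times lower than with Scramble under Si-KDM4C#1 and 2.01 times lower under Si-KDM4C#2.

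CD44, the receptor for hyaluronan, stood at 26.5, 26.7 and 27.0 FPKM with Scramble, 31.1, 31.5 and 32.4 under Si-KDM4C#1, and 17.1, 18.5 and 18.3 under Si-KDM4C#2. The spread within groups was small and none overlapped. CD44 rose by 0.23 on the log2 scale with Si-KDM4C#1 (SE 0.038, adjusted p = 0.000439), which did not pass after quantile normalization (0.07, adjusted p = 0.193), and fell by 0.55 with Si-KDM4C#2 (adjusted p = 2.26e-06, limma-trend).

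Beyond the 35 genes, 6 lists of other junction and marker genes held 158 genes, of which 136 were listed and 91 tested. The lists were written with earlier results of these data known, so their shares cannot test whether such genes changed more often than others. With Si-KDM4C#1, 39 rose and 36 fell (42.9% and 39.6%, beside 31.7% and 33.9% of all genes tested). Over 2-fold, 11 rose and 7 fell (12.1% and 7.69%, beside 4.04% and 4.83%), and the median log2 fold change was 0.07, against -0.03 over all genes tested. With Si-KDM4C#2, 25 rose and 44 fell (27.5% and 48.4%, beside 34.4% and 25.0% of all genes tested). Over 2-fold, 3 rose and 8 fell (3.3% and 8.79%, beside 2.6% and 2.3%), and the median was -0.15, against 0.06 over all genes tested. Of 20 other tight junction and polarity genes tested, 10 rose and 6 fell with Si-KDM4C#1 and 4 rose and 11 fell with Si-KDM4C#2. Of 16 other adherens junction genes, the counts were 7 and 6, then 4 and 8. Of 5 other desmosome genes they were 3 and 1, then 3 and 2, of 5 gap junction genes 2 and 3, then 1 and 3, of 27 mesenchymal marker genes 11 and 12, then 10 and 11, and of 18 epithelial marker genes 6 and 8, then 3 and 9.

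Several genes of these lists moved further than the members, and they too parted by siRNA. CALD1 (caldesmon), an actin-binding protein, had a mean of 33.7 FPKM with Scramble, 12.96 under Si-KDM4C#1 and 2.95 under Si-KDM4C#2 (-1.31 and -3.14 on the log2 scale, adjusted p = 2.28e-07 and 5.13e-09, limma-trend). NECTIN4, a nectin of adherens junctions, had means of 1.22, 9.01 and 0.171 FPKM in the same order, rising with Si-KDM4C#1 (2.18, adjusted p = 1.99e-06) and falling with Si-KDM4C#2 (-0.91, adjusted p = 0.000965, limma-trend). NECTIN4 passed the filter only through Scramble and Si-KDM4C#1, the groups where it was higher. MAL2, an apical transport protein, likewise went from 20.2 FPKM up to 51.0 with Si-KDM4C#1 and down to 6.11 with Si-KDM4C#2 (1.29 and -1.58, adjusted p = 1.62e-07 and 9.85e-08, limma-trend).

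Other genes moved in the same direction with both, most of them by unequal amounts. TCF3, whose E2A proteins bind E-boxes, rose from 6.27 FPKM to 24.6 and 24.2 (1.82 and 1.80, adjusted p = 3.62e-08 and 7.78e-08, limma-trend). The direct difference between the siRNAs was -0.02 (adjusted p = 0.795, limma-trend). PERP, a membrane protein of desmosomes, rose from 18.3 to 53.0 and 41.0 FPKM (1.49 and 1.12), SDC1 (syndecan-1) from 12.2 to 39.9 and 22.1 (1.64 and 0.82), and AMOTL1, of the angiomotin family, from 3.48 to 8.02 and 7.14 (1.01 and 0.86). Between the siRNAs, PERP differed by -0.37 (adjusted p = 0.00259), SDC1 by -0.82 (adjusted p = 2.39e-06) and AMOTL1 by -0.15 (adjusted p = 0.0631, limma-trend). LSR, of tricellular junctions, rose from 2.58 to 7.42 and 3.72 FPKM (1.23 and 0.40), the value for Si-KDM4C#2 being lost after GC adjustment (0.03). LIMA1, which binds alpha-catenin and actin, fell from 44.8 to 13.8 and 26.4 FPKM (-1.63 and -0.74), and VCL (vinculin) from 31.0 to 23.1 and 13.3 (-0.41 and -1.17). LSR differed between the siRNAs by -0.84 (adjusted p = 7.17e-06), LIMA1 by 0.89 (adjusted p = 5.01e-07) and VCL by -0.76 (adjusted p = 5.45e-07, limma-trend).

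PRSS8 (prostasin), a serine protease known to act with matriptase, fell from 18.6 FPKM to 11.9 with Si-KDM4C#1 and 4.26 with Si-KDM4C#2 (-0.61 and -1.91, adjusted p = 0.0002 and 2.02e-07, limma-trend), a larger fall with Si-KDM4C#2, whereas ST14 fell more with Si-KDM4C#1. TGFBI, a matrix protein, fell from 2.84 to 1.69 and 0.517 FPKM (-0.51 and -1.34), and CLDN12 from 7.33 to 3.12 and 6.24 (-1.02 and -0.20, the latter lost after GC adjustment at -0.09). TGFBI passed the filter only through Scramble and Si-KDM4C#1, the groups where it was higher. GJD3, a connexin, had means of 0.202 FPKM with Scramble, 1.49 under Si-KDM4C#1 and 1.33 under Si-KDM4C#2 (1.06 and 0.95). It passed the filter only through the siRNA groups, where it was high, and after GC adjustment its value was 0.58 with Si-KDM4C#1, under 2-fold, and 0.38 with Si-KDM4C#2, no longer past the FDR limit.

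**Figure D5:**
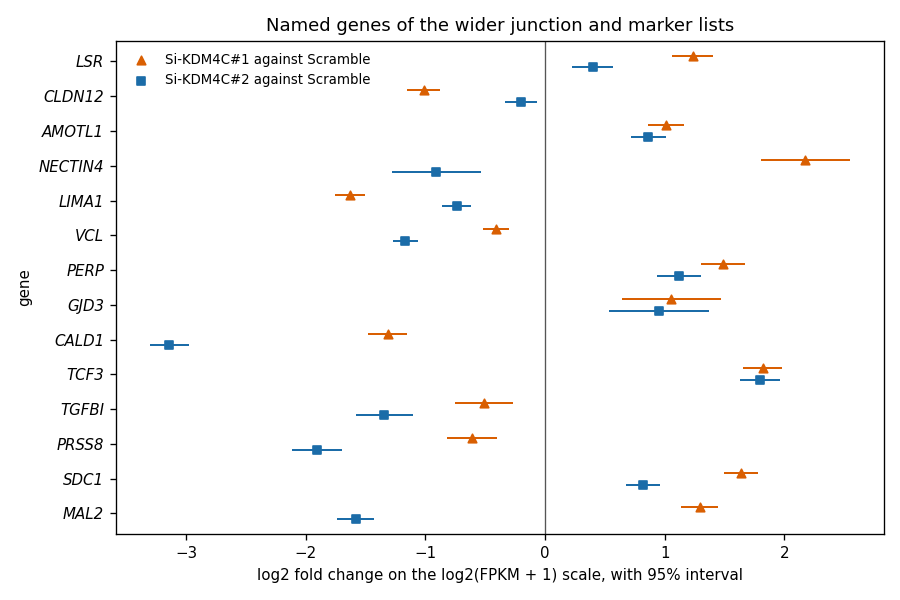
Log2 fold change against Scramble of the 14 named genes of the wider lists on the log2(FPKM + 1) scale (orange triangles Si-KDM4C#1, blue squares Si-KDM4C#2; lines are 95% intervals). TCF3 and PERP lie to the right with both siRNAs, CALD1 reaches -3.14 with Si-KDM4C#2, and NECTIN4 and MAL2 lie on opposite sides of 0.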

How the data were processed

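Huh7 cells were transfected with Scramble siRNA, Si-KDM4C#1 or Si-KDM4C#2, and total RNA was taken with TRIzol after 48 hours. For each library the authors deposited the FPKM of every listed gene beside its identifier and symbol. The submitters' processing notes name FastQC 0.11.5, HISAT2 2.1.0, StringTie 1.3.3b, featureCounts and DESeq 1.28.0 and the build GRCh38, without saying which tool made the FPKM. Whether libraries were scaled against each other is not given in the sources used here.

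Multiplied by exon length (GENCODE release 29) and a fitted total per library, the values came out whole within 0.05 in all libraries for 32080 of 32906 genes (97.49%), which gave fragments and depth. SNAI2 was the 1 member without whole fragments. Fragments of replicates were further apart than counting error allows (chi-square divided by its degrees of freedom was 2.56 to 5.75 over the pairs), so all 9 were counted as separate.

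The test was limma 3.58.1 under R 4.3.3, applied to log2(FPKM + 1) with a trended prior, the 9 libraries fitted together without covariates, for genes whose group mean was 1 FPKM or more in any group. Members below that came from the same fit over all genes. Calls needed an FDR under 0.05, with or without a fold change over 2. Exact permutation tests went through every split of the libraries with numpy 2.4.6, and plots used matplotlib 3.10.9. The fit was tested on simulated data.

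As alternatives, the fit was repeated with a pseudocount of 0.1, quantile normalization, no filter, a minimum of 1 FPKM in all libraries (11171 genes), just the 6 libraries compared, the replicate number as a block, each library left out, an FDR of 0.01, limma voom on the fragments (at least 10 in at least 3 libraries, 16010 genes) and a lowess adjustment for GC content (span 0.3, 14343 genes). Voom with the block was added after seeing the data. The members and lists were chosen with earlier results of these data known. Per-library values were given for members past both limits in any comparison, for ZEB1, SNAI1 and VIM, for the highest member of each role, and, chosen after their values were seen, for TWIST1, CDH2 and DSP. Beyond the members, KDM4C, KDM4B, CTNNB1 and up to 3 genes per list past both limits with the largest fold change were named. Promoter sequences are from RefSeq (GRCh38.p14). Loci were compared for shared exon bases in GENCODE release 29.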

Additional observations from a re-analysis of the deposited data

Results flagged for a closer look

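For 21 of the 26 tested genes, the siRNAs' changes against Scramble differed from each other by a direct test (Si-KDM4C#2 against Si-KDM4C#1, limma-trend, FDR under 0.05), beside 62.4% of all genes tested. Of these, 4 passed in opposite directions with the 2 siRNAs. For CD44, CDH3 and CLDN7, but not F11R, a call against Scramble was lost in some alternative fits, as given above. The difference, as Si-KDM4C#2 minus Si-KDM4C#1 on the log2 scale, was -1.32 for F11R, -0.79 for CD44, 0.54 for CDH3 and 0.62 for CLDN7. It was -1.37 for CLDN1, 0.75 for TJP1, 0.51 for SNAI2, 0.40 for ZEB1, 0.45 for CTNNA1, -0.53 for CDH2 and 0.39 for CLDN4, which passed with Si-KDM4C#1 alone. It was -0.75 for DSP, 0.63 for TWIST1, 0.39 for VIM and 0.12 for JUP, which passed with Si-KDM4C#2 alone. Genes that moved the same way with both but by unequal amounts differed by 0.70 (ST14), 0.63 (S100A4), -0.34 (ESRP2), -0.29 (PKP3) and 0.17 (CTNND1, whose difference was 0.04 and not past the limit in voom), and PKP2, which passed with neither, by -0.20. The differences of CLDN4, JUP and PKP2 fell out of the FDR limit in several fits, as given below. The libraries with Si-KDM4C#2 also held less KDM4C, at 0.256 to 0.349 FPKM against 1.10 to 1.18 with Si-KDM4C#1, and less KDM4B, and the part of either in these differences was not tested.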

How the results depend on the processing

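Over the fits that left out a library, 651 of 702 values of the tested genes kept direction and side of the FDR limit, 23 fell out of it, 9 came into it and 19 changed sign, 0 of these being past the limit in either fit. Over the other alternatives 675 of 765 kept both, 25 fell out, 37 came in and 28 changed sign, 6 of these past the limit in at least 1 of the fits compared. For Si-KDM4C#1 against Scramble, genes lower by FDR and fold (2 as reported) were 1 after quantile normalization, 4 with a pseudocount of 0.1, 0 with at least 1 FPKM in every library (which leaves FN1 and ST14 out), 4 in voom, 1 after GC adjustment and 5 in voom with the replicate block, and genes higher by both (1 as reported) were 2 with the pseudocount of 0.1 and in voom with or without the block. By FDR alone, 10 rather than 6 were higher in voom with or without the block. For Si-KDM4C#2 against Scramble, genes lower by both (1 as reported) were 0 with at least 1 FPKM in every library and 4 in voom with or without the block. By FDR alone, 12 rather than 7 were lower in voom and after GC adjustment and 11 in voom with the block, and 4 rather than 7 were higher after GC adjustment. Between the siRNAs, genes higher with Si-KDM4C#2 by both (0 as reported) were 2 with the pseudocount of 0.1, 3 in voom and 4 in voom with the block. Voom also fitted ZEB2, OCLN and SPARC, which were under the filter of the main fit, and could not fit SNAI2. Without the block, SPARC was among the 4 lower by both with each siRNA, and OCLN among those with Si-KDM4C#2. By FDR alone, ZEB2 and SPARC were among those lower with Si-KDM4C#1, and OCLN and SPARC with Si-KDM4C#2. ZEB2 was among the 3 higher between the siRNAs.

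The fits without a library gave 1 to 3 genes lower by both with Si-KDM4C#1 and 1 to 1 higher, 0 to 1 lower and 0 to 1 higher with Si-KDM4C#2, and between the siRNAs 2 to 2 lower and 0 to 0 higher. By FDR alone the ranges were 9 to 11 lower and 6 to 7 higher, 7 to 8 lower and 7 to 8 higher, and 7 to 8 lower and 11 to 13 higher.

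Of values past the limit in at least 1 fit, those that changed sign were JUP with Si-KDM4C#1 after quantile normalization (-0.11) and GC adjustment (-0.20), JUP with Si-KDM4C#2 after GC adjustment (-0.13), JUP between the siRNAs in voom (-0.0102, with the block -0.0104), CTNNA1 with Si-KDM4C#2 after quantile normalization (-0.11) and, outside the 26 genes, CTNNB1 with Si-KDM4C#1 after quantile normalization (-0.0368). The others lay near 0. For Si-KDM4C#1, DSP became 0.0481 in voom, 0.0488 in voom with the block and 0.0051 after GC adjustment, VIM 0.0463, 0.0472 and 0.026 in the same order, SNAI1 0.0214 in voom, 0.0204 in voom with the block and 0.0726 after quantile normalization, and CLDN3 -0.17 after GC adjustment. For Si-KDM4C#2, CLDN1 became 0.0156 after GC adjustment, CTNNA1 -0.0215 in voom and -0.0217 in voom with the block, and TWIST2 -0.0286 after quantile normalization, -0.0437 in voom, -0.0442 in voom with the block and -0.17 after GC adjustment. Between the siRNAs, FN1 became 0.0019 with the pseudocount of 0.1, TCF3 0.0014 after quantile normalization, and TAGLN -0.11 after quantile normalization, -0.0689 in voom, -0.0651 in voom with the block and -0.0125 after GC adjustment. Without a library, sign changed within ranges of -0.0718 to 0.0494 (DSP), -0.003 to 0.062 (JUP), -0.11 to 0.023 (SNAI1) and -0.0736 to 0.0341 (VIM) for Si-KDM4C#1, of -0.19 to 0.058 (CLDN3), -0.0914 to 0.0264 (PKP2) and -0.0413 to 0.0849 (TWIST2) for Si-KDM4C#2, and of -0.0701 to 0.0517 (FN1), -0.23 to 0.0255 (GJD3), -0.0292 to 0.0828 (TAGLN) and -0.0717 to 0.012 (TCF3) between the siRNAs. The cause was not tested. Between the siRNAs, CLDN4 fell out of the FDR limit without Si-KDM4C#1 replicate 2 (0.37), Si-KDM4C#1 replicate 3 (0.36) or Si-KDM4C#2 replicate 3 (0.37), JUP without 4 of the 6 knockdown libraries (0.10 to 0.12) and PKP2 without Scramble replicate 2 or any of the 6 knockdown libraries (-0.23 to -0.15), CLDN3 came in without Si-KDM4C#2 replicate 2 (-0.40) and TWIST2 without Si-KDM4C#1 replicate 2 (-0.37). The median over all genes tested moved by under 0.1 with each scaling.

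Same-numbered libraries of different groups did not deviate together (mean correlation 0.0162 over 9 pairs, -0.00808 over 18 pairs with different numbers), so the numbers do not pair them. In the fit with the replicate block, 10 rather than 11 genes were lower and 6 higher by FDR with Si-KDM4C#1, 8 lower and 7 higher with Si-KDM4C#2, and 7 lower and 13 higher between the siRNAs. CDH1, GRHL2, OVOL1 and ESRP1 gave too few fragments over the 9 libraries for a difference to be detectable.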
